A study of Mus musculus with 2 samples.

Results

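The genes described here encode the MHC class I antigen presentation pathway and the immunoproteasome. They are the class I chains H2-K1, H2-D1 and B2m, the peptide transport and loading genes Tap1, Tap2 and Tapbp, the immunoproteasome subunits Psmb8, Psmb9 and Psmb10, and the transcriptional regulator Nlrc5. Each was found by its symbol in the gene list shared by both deposited matrices, and all 10 were present among 31053 genes. The study measured single-cell transcriptomes of thymic cells sorted as EPCAM-positive and Ly51-negative, a gate for medullary thymic epithelial cells (mTECs), with a 10x Genomics 3' kit. It held 2 libraries, 1 labelled Foxn1-Cre(+) Ikarosfl/fl and 1 labelled Foxn1-Cre(+) Ikaros+/fl. Both carry Foxn1-Cre, a recombinase driven in thymic epithelium, and a floxed allele of Ikzf1, which encodes the transcription factor Ikaros. The fl/fl-labelled library has 2 floxed alleles and the +/fl-labelled library has 1. The deleted exons, and how many mice of which age and sex were used, are not in the labels. The submitters' names for the matrices state the genotypes the other way round, with the fl/fl-labelled library called control and the +/fl-labelled library called knockout, so every direction below holds between libraries as labelled. With 1 library per genotype there is no replicate check and no test, and all intervals are exact 95% intervals that cover counting error only.

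MHC class I molecules are heavy chains, such as those encoded by H2-K1 and H2-D1, paired with beta-2-microglobulin, the product of B2m, and they show peptides from inside the cell to CD8 T cells. The peptides are cut by the proteasome, pumped into the endoplasmic reticulum by the TAP transporter and loaded with the help of tapasin, while the immunoproteasome subunits take the places of the constitutive catalytic subunits Psmb5, Psmb6 and Psmb7 and change which peptides are made. Nlrc5 is the transactivator of class I genes, and mTECs use this pathway to show self-peptides to developing CD8 T cells.

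In the mouse genome most of these genes lie together in the MHC region of chromosome 17. Positions are from GENCODE M21 on GRCm38, matched by Ensembl identifier, since the build of the files is not given in the sources used here. H2-K1 (ENSMUSG00000061232) lies at chr17:33996017-34000347 on the minus strand and H2-D1 (ENSMUSG00000073411) at chr17:35262730-35267499 on the plus strand. Tapbp (ENSMUSG00000024308) lies at chr17:33915899-33929292, Psmb9 (ENSMUSG00000096727) at chr17:34181987-34187764, Tap1 (ENSMUSG00000037321) at chr17:34187553-34197225, Psmb8 (ENSMUSG00000024338) at chr17:34197721-34201454 and Tap2 (ENSMUSG00000024339) at chr17:34203527-34216321. Psmb9 is on the minus strand and overlaps the start of Tap1 on the plus strand. Outside this region, B2m (ENSMUSG00000060802) lies at chr2:122147686-122153083, Psmb10 (ENSMUSG00000031897) at chr8:105935735-105938444 and Nlrc5 (ENSMUSG00000074151) at chr8:94434356-94527272. H2-K1 and H2-D1 are near-identical to each other and to further class I genes, so the split of 3' reads between them is uncertain.

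The promoters are shown because the class I chains and their transport genes are read against each other below, and because the chain promoters share an arrangement of short motifs. Each window runs from 250 bases before to 50 bases after the start that RefSeq annotates on GRCm38.p6, and 8 of the 10 genes had one. Capitals mark GAAANNGAA, the core of an interferon response element, GGGANNNCC, a kappaB form, TTCNNNGAA, a GAS form, CCAAT, the core of a Y box, and TGACG, the core of an X2 box, each on either strand. The windows are chr17:34000284-34000583 on the minus strand for H2-K1, chr17:35262844-35263143 on the plus strand for H2-D1, chr2:122147437-122147736 on the plus strand for B2m and chr17:34187306-34187605 on the plus strand for Tap1. RefSeq gives H2-K1 another start a few bases away, and GENCODE starts H2-D1, Psmb8, Psmb9 and Tapbp upstream of their windows.
H2-K1: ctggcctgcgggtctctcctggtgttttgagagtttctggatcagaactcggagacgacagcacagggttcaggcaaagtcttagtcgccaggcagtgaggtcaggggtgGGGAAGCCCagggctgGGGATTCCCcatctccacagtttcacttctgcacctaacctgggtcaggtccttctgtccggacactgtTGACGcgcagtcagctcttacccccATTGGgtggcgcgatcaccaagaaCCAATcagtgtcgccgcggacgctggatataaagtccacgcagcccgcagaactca
H2-D1: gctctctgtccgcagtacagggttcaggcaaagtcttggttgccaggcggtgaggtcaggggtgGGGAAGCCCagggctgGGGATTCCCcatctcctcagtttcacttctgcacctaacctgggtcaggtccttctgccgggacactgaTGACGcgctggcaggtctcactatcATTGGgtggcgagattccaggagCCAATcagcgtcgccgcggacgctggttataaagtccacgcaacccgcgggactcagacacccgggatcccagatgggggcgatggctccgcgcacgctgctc
B2m: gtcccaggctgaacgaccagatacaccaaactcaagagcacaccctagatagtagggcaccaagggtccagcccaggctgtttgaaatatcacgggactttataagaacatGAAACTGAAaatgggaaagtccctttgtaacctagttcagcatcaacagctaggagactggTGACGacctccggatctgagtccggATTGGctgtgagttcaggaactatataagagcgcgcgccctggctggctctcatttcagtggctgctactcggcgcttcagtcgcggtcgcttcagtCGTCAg
Tap1: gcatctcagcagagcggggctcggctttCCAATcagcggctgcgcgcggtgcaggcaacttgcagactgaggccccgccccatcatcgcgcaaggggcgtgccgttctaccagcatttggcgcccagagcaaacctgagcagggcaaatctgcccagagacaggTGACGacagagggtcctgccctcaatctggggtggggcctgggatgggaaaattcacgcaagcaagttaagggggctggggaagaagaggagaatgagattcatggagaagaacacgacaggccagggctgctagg

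GAAANNGAA was found in 1 of the 8 members with a window, B2m, at positions -139 to -131 from the start, against 8.56% of all 32851 windows in the table. GGGANNNCC was found in H2-K1 and H2-D1, against 18.6% of windows, and TTCNNNGAA in Psmb8, against 8.3%. CCAAT was found in 6 of 8, against 37.4%, and TGACG in 5 of 8 (B2m, H2-D1, H2-K1, Psmb9 and Tap1), against 20.8%. In H2-K1, H2-D1 and B2m the letters TGACG were followed after exactly 20 bases by ATTGG, which is CCAAT on the other strand. This arrangement was noted after the sequences were seen, and 31 of 32851 windows (0.0944%) hold it. Of 11 other class I and class I-like genes with a window, H2-M3 held it. H2-K1 and H2-D1 are related copies, so they are not separate instances. The Tap1 and Psmb9 windows overlap. A match describes these letters in this window and is neither a binding site nor a cause of a level.

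The fl/fl-labelled library kept 7669 of 11095 barcodes after quality filters and the +/fl-labelled library kept 4891 of 7304, with medians of 8026 and 10673 unique molecular identifiers (UMIs) per cell. Over kept cells, 77758171 and 66075291 UMIs were summed, and a level is given as UMIs per 1000000 (CPM). Ikzf1 had 37.3 CPM in the fl/fl-labelled library and 64.9 CPM in the +/fl-labelled library. Xist had 0.913 CPM in the fl/fl-labelled library and 1316 CPM in the +/fl-labelled library, and the Y-linked Ddx3y had 64.5 CPM and 0 UMIs, so labelled genotype cannot be told apart from sex. The 23 clusters were named from marker lists, giving 18 classes, and names mean resemblance only. The keratinocyte-like cluster scored equally on the secretory list, with Agr2 and Ltf among its leading genes, so that name is not exclusive. The class I and immunoproteasome genes were left out of the clustering. Tuft cells with leukocyte-associated genes (immune-like) were 4.003% (3.58 to 4.47) of the fl/fl-labelled library and 24.9% (23.7 to 26.1) of the +/fl-labelled library. Tuft cells with taste-cell genes (taste-like) were 7.13% and 12.1%, Aire-stage mTECs 40.0% and 17.8%, and immature mTECs 19.7% and 19.8%. The taste-like cluster also met Rgs21, Ovol3 and Myog, the markers listed for a further tuft subtype. Ccr7 dendritic-like cells, present in this EPCAM-positive sort, were 3.61% and 6.32%. The libraries shared 25 barcodes, of which 10 were kept.

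**Figure D1:**
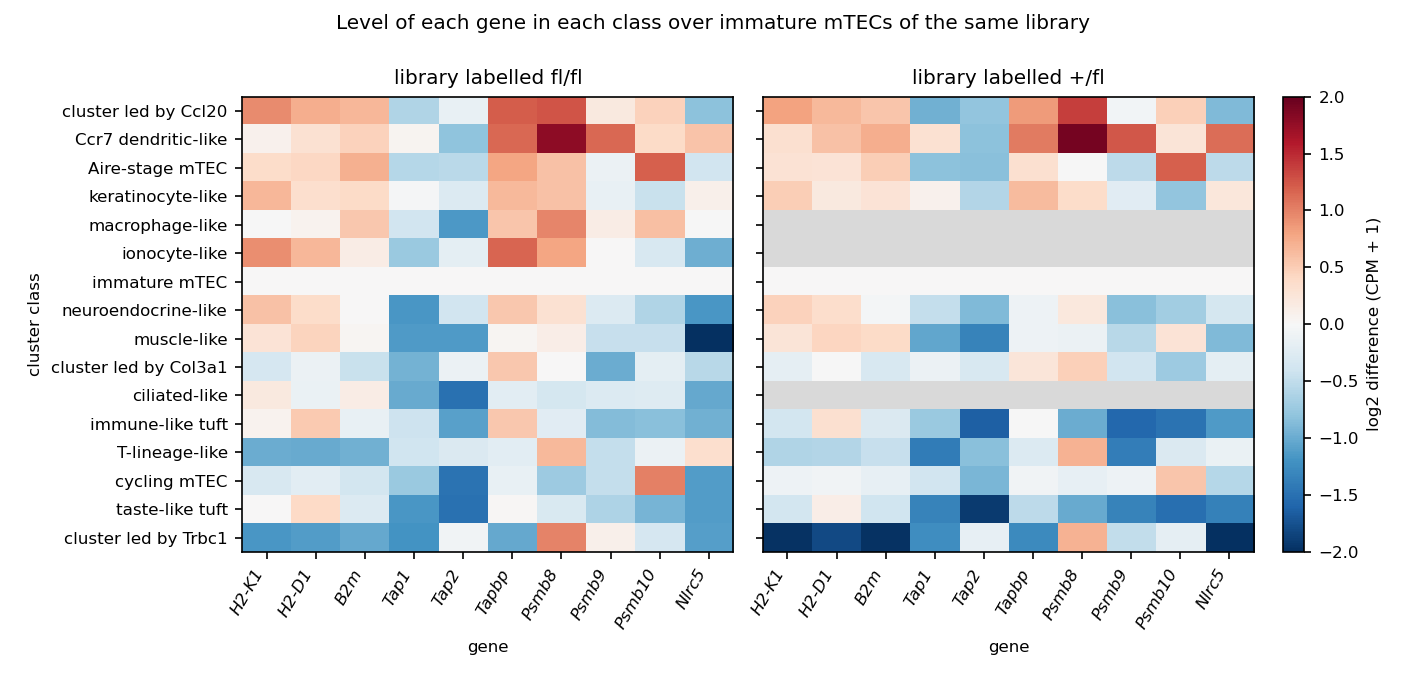
Log2 level of each of the 10 genes in each cell class and library, relative to immature mTECs of the same library, on a colour scale from -2 to 2. Columns are genes, rows are classes with fl/fl sums before +/fl sums, and grey marks sums of fewer than 20 cells. Psmb8 and Psmb9 are highest in Ccr7 dendritic-like cells, Psmb10 in Aire-stage mTECs and Tap2 in immature mTECs, in both libraries.

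Across cell classes the 10 genes did not share one order. Sums of at least 20 cells could be formed for 16 classes of the fl/fl-labelled library and 13 of the +/fl-labelled library, of which 12 and 10 were epithelial. Because capture at the 3' end differs between genes, levels are compared between classes for 1 gene at a time and never between genes. Ccr7 dendritic-like cells had the highest Tap1, Psmb8, Psmb9 and Nlrc5 sums in both libraries, a cluster led by Ccl20 the highest H2-K1 and H2-D1, immature mTECs the highest Tap2 and Aire-stage mTECs the highest Psmb10, in some cases with intervals that overlapped the next class.

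Heavy chain sums were highest in 1 small epithelial cluster. H2-K1, a classical heavy chain, ran from 2555 to 6233 CPM over 12 epithelial classes of the fl/fl-labelled library, with a median of 3810.5 CPM, and from 2226 to 5049 CPM over 10 of the +/fl-labelled library. The highest sum in both was a cluster led by the chemokine gene Ccl20, which carried microfold and enterocyte genes and held 404 and 53 cells. In the fl/fl-labelled library its 6233 CPM (6159 to 6308) and the 6157 CPM (5883 to 6441) of ionocyte-like cells had overlapping intervals. H2-D1, the other classical heavy chain, was also highest there, at 4188 and 3746 CPM, with intervals overlapping those of ionocyte-like cells labelled fl/fl and of Ccr7 dendritic-like cells labelled +/fl. It was lowest among epithelial sums in cycling cells, at 2187 and 2277 CPM. The highest epithelial sum was 1.91-fold the lowest for H2-D1 in the fl/fl-labelled library and 1.65-fold in the +/fl-labelled library, the smallest spans of the 10 genes in each library.

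B2m, the light chain shared by all class I molecules, was highest in Aire-stage mTECs of the fl/fl-labelled library, at 6548 CPM (6522 to 6575), and in Ccr7 dendritic-like cells of the +/fl-labelled library, at 5674 CPM (5589 to 5759.6). Immature mTECs, the class of Ccl21a and Krt5, had 3989 and 3414 CPM. T-lineage cells had 2053 and 2486 CPM of B2m and 1618 and 1913 CPM of H2-K1. A small cluster led by the T-cell receptor gene Trbc1 had the lowest sums of all 3 chains in both libraries, with B2m at 1963 CPM from 29 cells labelled fl/fl and 866 CPM from 47 cells labelled +/fl. Over both libraries Epcam stood at 153 CPM in T-lineage cells, 220 CPM in the Trbc1-led cluster and 207 CPM in Ccr7 dendritic-like cells. Ccl21a, an immature mTEC marker, stood at 298, 1598 and 403 CPM there. The part of epithelial RNA in these sums was not tested.

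The peptide transporter genes followed another order. Tap1 and Tap2 encode the subunits of the TAP pump, yet their class orders differed. Tap2 was highest in immature mTECs, at 167 CPM (159 to 176) in the fl/fl-labelled library and 182 CPM (174 to 191) in the +/fl-labelled library. It was lowest in tuft taste-like cells, at 58.5 CPM (52.3 to 65.3) and 47.4 CPM (42.7 to 52.4), so immature mTECs held 2.86-fold and 3.85-fold as much. In the fl/fl-labelled library its immature mTEC interval overlapped those of the Trbc1-led, Col3a1-led and Ccl20-led clusters and of ionocyte-like and T-lineage cells, and its taste-like interval that of cycling cells, at 59.2 CPM (52.99 to 65.9), among others. Tap1 was highest in Ccr7 dendritic-like cells, at 142 CPM (126 to 159.9) in the fl/fl-labelled library and 160.4 CPM (146 to 175) in the +/fl-labelled library, and immature mTECs came next in the fl/fl-labelled library with 137 CPM (129.7 to 144), an overlapping interval, as was the 139 CPM (125 to 154) of keratinocyte-like cells labelled +/fl. Tap2 in those dendritic-like cells was 95.3 and 103 CPM, below immature mTECs. Tapbp, which encodes the loading chaperone tapasin, was highest in the Ccl20-led cluster of the fl/fl-labelled library, at 284 CPM (269 to 301), and in Ccr7 dendritic-like cells of the +/fl-labelled library, at 252 CPM (234 to 271). These classes had overlapping intervals in both libraries, with 272 CPM (249.5 to 296) in dendritic-like cells labelled fl/fl and 222 CPM (191 to 256) in the Ccl20-led cluster labelled +/fl. Among the epithelial sums labelled +/fl Tapbp was lowest in tuft taste-like cells (84.5 CPM).

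Of the 3 immunoproteasome subunits, Psmb8 and Psmb9 were highest in Ccr7 dendritic-like cells and Psmb10 in Aire-stage mTECs. Psmb8 reached 973 CPM (930.2 to 1018) in Ccr7 dendritic-like cells of the fl/fl-labelled library and 1015 CPM (979.7 to 1052) in those of the +/fl-labelled library. The Ccl20-led cluster came next with 678 and 702 CPM. At the low end, cycling cells labelled fl/fl held 169 CPM and tuft taste-like cells labelled +/fl held 133 CPM, close to the 134 CPM of tuft immune-like cells in that library. Psmb9 was also highest in Ccr7 dendritic-like cells, at 501 and 587 CPM, against 259 CPM in the Ccl20-led cluster and 247 CPM in immature mTECs, the next classes in each library. Psmb10 went another way. Its highest sums were Aire-stage mTECs, at 497 CPM (489.7 to 504) in the fl/fl-labelled library and 525 CPM (514 to 536) in the +/fl-labelled library, followed by cycling cells at 436 and 337 CPM, while dendritic-like cells held 283 and 274 CPM. Tuft taste-like cells had the lowest Psmb10, at 113 CPM (104 to 122) and 80.1 CPM (74.0 to 86.6). Tuft immune-like cells had overlapping intervals, at 120.2 CPM (103 to 139) and 82.2 CPM (76.9 to 87.8). Nlrc5 was scarce, with 39.8 and 46.1 CPM at its highest in Ccr7 dendritic-like cells, with intervals that overlapped those of T-lineage cells in both libraries, and 26.5 and 20.6 CPM in immature mTECs.

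Read against immature mTECs of the same library, the median of the 10 genes was lower in both tuft classes and higher in dendritic-like cells. A log2 ratio here is of CPM with 1 CPM added to both sums. In tuft immune-like cells the median of the 10 log2 ratios over immature mTECs was -0.32 in the fl/fl-labelled library, with 3 genes higher against 54.2% of all genes tested, and -0.87 in the +/fl-labelled library, with 1 higher against 60.4%. In tuft taste-like cells it was -0.46, with 3 higher against 60.8%, and -1.17, with 1 higher against 62.0%. With trimmed-mean (TMM) scaling, which shifts log2 ratios by -0.26 there, the tuft taste-like background labelled fl/fl became 49.5%, and H2-K1 and Tapbp turned lower there, leaving H2-D1 higher. The same scaling turned H2-K1 lower in tuft immune-like cells labelled fl/fl and H2-D1 lower in tuft taste-like cells labelled +/fl. H2-D1 had log2 ratios of 0.52 and 0.32 in tuft immune-like cells, while Tap2 had -1.08 and -1.63 and Psmb9 -0.87 and -1.58. Tuft immune-like cells thus held more of the heavy chain gene H2-D1 than immature mTECs, and less of Tap2 and Psmb9. The median for tuft immune-like cells labelled fl/fl was -0.047 with a stricter cell filter. In Ccr7 dendritic-like cells 9 of 10 genes were higher in both libraries, with medians of 0.42 and 0.66, against 39.9% and 37.5% of all genes, the second becoming 51.3% with TMM scaling and its shift of 0.33. Tap2 was the exception, at -0.81 and -0.81.

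Aire-stage mTECs differed from immature mTECs gene by gene. In the fl/fl-labelled library 6 of 10 genes were higher, with a median of 0.39, against 49.2% of genes tested, and in the +/fl-labelled library 5 of 10 were higher, with a median of 0.13, against 53.2%. Psmb10 had log2 ratios of 1.20 and 1.19 and B2m 0.72 and 0.49. Tap1 had -0.57 and -0.83 and Tap2 -0.54 and -0.84. Aire-stage sums thus held more of the chain and proteasome genes B2m and Psmb10 and less of both transporter genes than immature mTEC sums of the same library.

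The tuft subtypes were then set against each other. Both are chemosensory epithelium that carries Trpm5 and Pou2f3, and the immune-like subtype also carries the leukocyte gene Ptprc. The taste-like class also met Rgs21, Ovol3 and Myog, markers of a further tuft subtype, so it may not be a single subtype. Within each library 9 of 10 genes were higher in tuft immune-like than in tuft taste-like cells, against 42.4% of 3649 genes tested in the fl/fl-labelled library and 47.7% of 3619 in the +/fl-labelled library, the second becoming 60.2% with TMM scaling and its shift of 0.12. Most of these differences were small, with median log2 ratios over the 10 genes of 0.12 and 0.14. The counting intervals of Psmb8, Psmb10 and Nlrc5 included 1-fold in both libraries, and that of H2-K1 did in the +/fl-labelled library. Tap1 differed most, at 103 CPM in immune-like and 60.2 CPM in taste-like cells labelled fl/fl, a log2 ratio of 0.76 (1.40- to 2.07-fold), and at 77.1 and 51.1 CPM in those labelled +/fl, a log2 ratio of 0.58 (1.34- to 1.70-fold). Tapbp came next, with log2 ratios of 0.51 and 0.52, and Tap2 had 0.42 and 0.29. All 3 transport and loading genes were thus higher in the immune-like subtype in both libraries. Psmb9 was the gene lower in immune-like cells, at -0.26 and -0.24, while H2-K1 was at 0.065 and 0.013 and Psmb8 at 0.068 and 0.018. The immune-like class labelled fl/fl held 307 cells with a median of 4132 UMIs and 10.7% mitochondrial UMIs, against 547 taste-like cells with 8967 UMIs and 7.49%, and the part of depth and RNA quality in these ratios was not tested.

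The next comparison was between the libraries. Over all kept cells each of the 10 genes was higher in the fl/fl-labelled library, with a median log2 ratio of 0.40, against 42.4% of 3509 genes tested and a median of -0.058. Of the 10 genes, 9 passed the filter for that background, at least 50 CPM in either library and 50 UMIs in all, and Nlrc5 did not. With TMM scaling, which shifts all log2 ratios by -0.095, 32.1% of genes were higher and the 10 genes were still all higher. In such sums, fewer cells of a type and less RNA per cell cannot be told apart.

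Among the chains, B2m had 5322 CPM in the fl/fl-labelled library and 3695 CPM in the +/fl-labelled library, 1.44-fold (1.43 to 1.45). H2-K1 had 4044 against 2969 CPM, a log2 ratio of 0.45, and H2-D1 3169 against 2766 CPM, a log2 ratio of 0.20. The chains were thus higher by unequal amounts. For transport and loading, Tapbp had 185 against 135 CPM (0.45), Tap2 116 against 100.1 CPM (0.22) and Tap1 98.5 against 88.5 CPM (0.15). Tap1 had the smallest log2 ratio of the 10. Of the immunoproteasome subunits Psmb8 had 391 against 273 CPM (0.52), Psmb10 349 against 267 CPM (0.39) and Psmb9 209 against 184 CPM (0.18). Nlrc5 had 20.04 against 14.9 CPM, 1.35-fold (1.24 to 1.46).

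**Figure D2:**
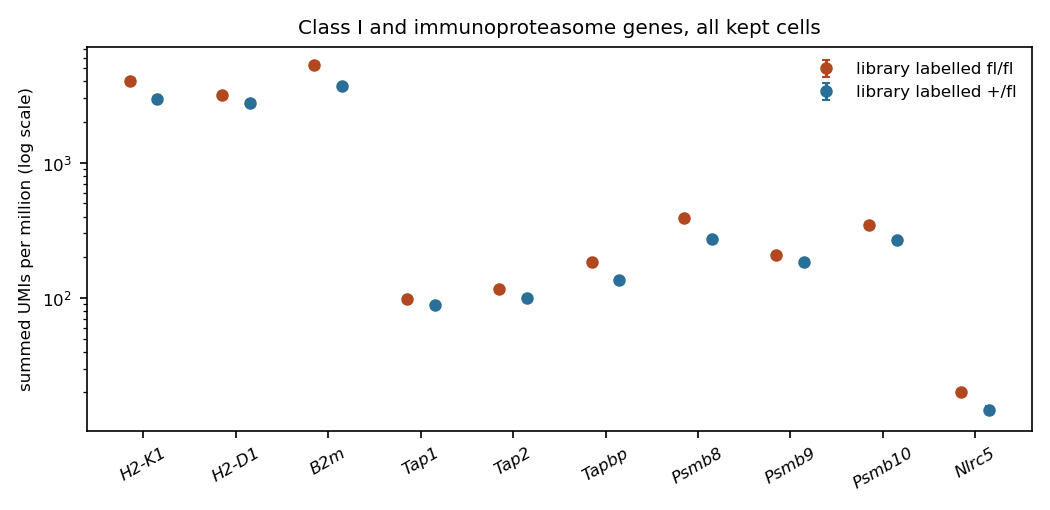
Level of each of the 10 genes summed over all kept cells, in CPM on a log axis, with the fl/fl-labelled library beside the +/fl-labelled library and exact 95% counting intervals. Each gene is higher in the fl/fl-labelled library, by log2 ratios of 0.15 for Tap1 to 0.53 for B2m.

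The same direction was seen within both tuft classes. In tuft immune-like cells all 10 genes were higher in the fl/fl-labelled library, with a median log2 ratio of 0.52, against 40.2% of genes tested and a median of -0.078 over them. Psmb8, the subunit that replaces Psmb5, had 239.7 CPM (216 to 266) in 307 cells labelled fl/fl and 134 CPM (128 to 141) in 1218 cells labelled +/fl, a log2 ratio of 0.83 (1.59 to 2.002-fold). H2-K1 had 3401 against 2246 CPM (0.60), B2m 3594 against 2784 CPM (0.37) and H2-D1 3628 against 2988 CPM (0.28). Psmb9 had 123 against 82.1 CPM (0.58), Tapbp 177 against 122 CPM (0.54) and Psmb10 120.2 against 82.2 CPM (0.54). Tap2 had a log2 ratio of 0.43 and Tap1 of 0.41 (1.11 to 1.58-fold). Nlrc5 rested on 20 and 97 UMIs, and its interval of 0.86 to 2.39-fold included 1. The class joins a cluster with 257 and 520 cells and one with 50 and 698 cells, and the median log2 ratio within them was 0.58 and 0.60.

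In tuft taste-like cells, 547 labelled fl/fl and 591 labelled +/fl, the 10 genes were again all higher in the fl/fl-labelled library, with a median log2 ratio of 0.52, against 52.2% of genes tested. Psmb8 had 229 CPM (216 to 242) against 133 CPM (125 to 141), a log2 ratio of 0.78 (1.59 to 1.87-fold). Psmb9 had 147 against 96.9 CPM (0.60), H2-K1 3252 against 2226 CPM (0.55) and Tapbp 124 against 84.5 CPM (0.55). The smaller ratios were those of H2-D1 (0.34), Tap2 (0.30) and Tap1 (0.23). Both subtypes thus shared Psmb8 as the gene with the highest ratio. Among cells of epithelial clusters with a Trpm5 UMI after thinning to 2000 UMIs, 660 labelled fl/fl and 1438 labelled +/fl, the median was 0.50 and Tap1 was at -0.017. Such cells need not be tuft cells, since Trpm5 also stood at 9.28 against 26.4 CPM in Aire-stage and 7.89 against 27.3 CPM in immature mTECs.

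Markers of other cell types also differed between the tuft sums, in both directions. All 8 Aire-stage markers were higher in the fl/fl-labelled library, summing to 233 against 98.2 CPM in immune-like and to 355 against 123 CPM in taste-like cells. Immature mTEC markers summed to 576 against 692 CPM in immune-like cells, with 2 of 8 higher, and to 529.9 against 531 CPM in taste-like cells, with 5 of 8 higher. The class II gene H2-Aa had 335 against 126 CPM in immune-like and 664 against 206 CPM in taste-like cells. The dendritic marker list summed to 212 against 124 CPM in immune-like and to 128 against 85.8 CPM in taste-like cells. Ptprc, also a gene of the immune-like subtype, made up 125 and 75.3 CPM of the immune-like sums. Of the 8 dendritic markers 5 were higher and 2 lower in each subtype. The lower ones were Ccr7 and Flt3 in immune-like cells, and Ccr7 and Zbtb46 in taste-like cells. Itgax was at 0 in both libraries, and Flt3 was at 0 in immune-like cells labelled fl/fl. The 12 T-lineage markers summed to 16.98 against 16.2 CPM in immune-like cells, with 7 higher and Cd3e at 0 in the fl/fl-labelled library, and to 59.1 against 64.6 CPM in taste-like cells, with 5 higher and Dntt at 0 in the fl/fl-labelled library. Tuft immune-like cells also differed in depth, with medians of 4132 UMIs in the fl/fl-labelled library and 7658.5 UMIs in the +/fl-labelled library. The part of these differences in the class I ratios was not tested.

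**Figure D3:**
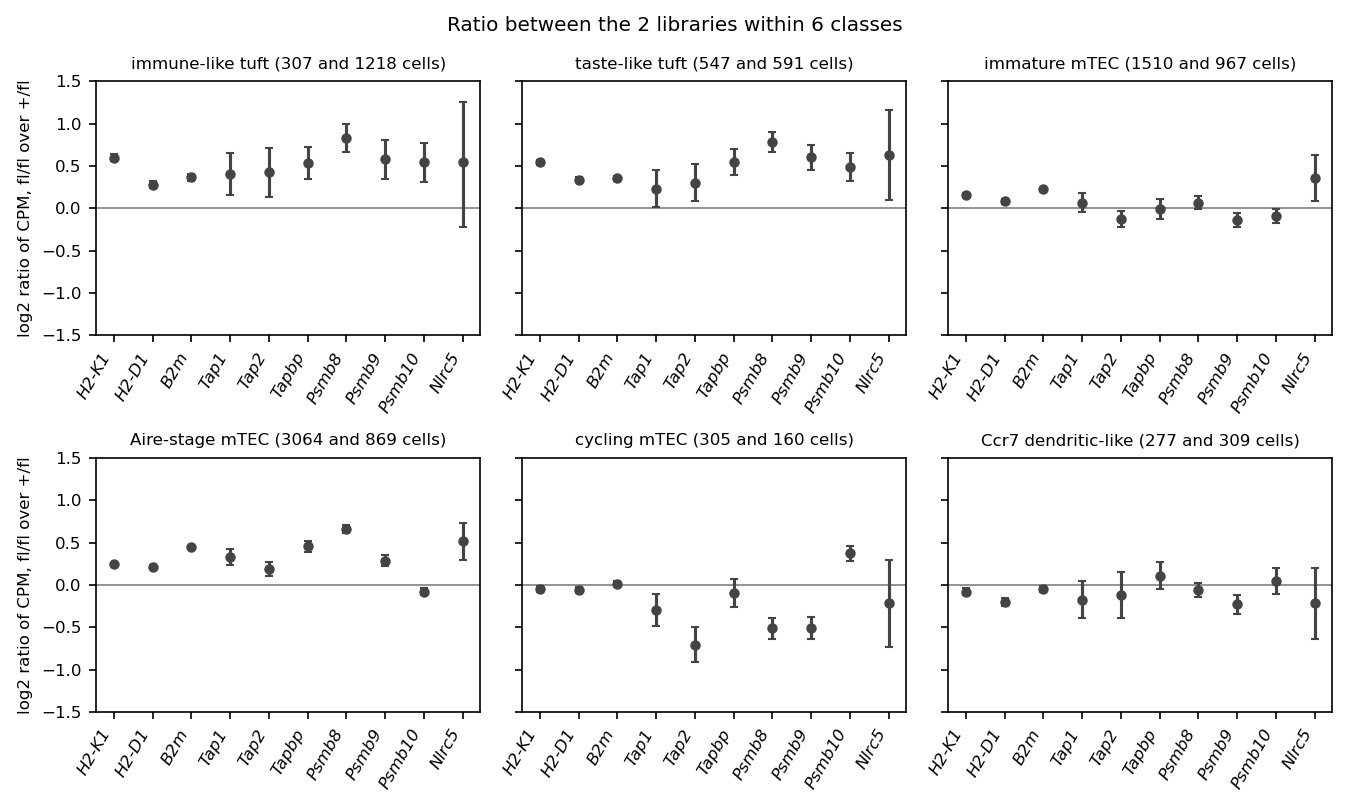
Log2 ratio of CPM, fl/fl over +/fl, for each of the 10 genes in 6 cell classes, with exact 95% counting intervals and a line at 0. In both tuft classes all 10 points lie above 0, in immature mTECs and Ccr7 dendritic-like cells points lie on both sides, and Psmb8 is the highest point in the tuft and Aire-stage panels.

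Immature mTECs and Ccr7 dendritic-like cells held close levels in the libraries. In immature mTECs 6 of 10 genes were higher in the fl/fl-labelled library, with a median log2 ratio of 0.069, against 52.8% of genes tested (41.8% with TMM scaling), and after thinning each cell to 2000 UMIs the median was -0.068. B2m had 3989 against 3414 CPM (0.22), Psmb8 282 against 268 CPM (0.068), Psmb9 226 against 247 CPM (-0.13) and Tap2 167 against 182 CPM (-0.12). No gene of the 10 except Nlrc5 (0.34) exceeded a log2 ratio of 0.22 in size there. The near-zero median covers shifts in both directions. Fold intervals lay above 1 for H2-K1, H2-D1, B2m and Nlrc5, and below 1 for Tap2, Psmb9 and Psmb10. In Ccr7 dendritic-like cells, leukocytes in which Foxn1 is not known to be active, 2 of 10 genes were higher, with a median of -0.097, against 57.0% of genes tested. With TMM scaling 1 of 10 was higher, Tapbp, against 37.2%, and with doublets kept the median was 0.076. Psmb9 had 501 against 587 CPM (-0.23), H2-D1 3139 against 3606 CPM (-0.20) and Psmb8 973 against 1015 CPM (-0.061). Fold intervals lay below 1 for H2-K1, H2-D1, B2m and Psmb9, and above 1 for no gene. Ikzf1 in these cells was 41.8 against 39.4 CPM, and in tuft immune-like cells 20.9 against 60.4 CPM.

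In Aire-stage mTECs the libraries filled different clusters. Over the class 9 of 10 genes were higher in the fl/fl-labelled library, with a median log2 ratio of 0.31, against 44.1% of genes tested (32.4% with TMM scaling, which shifts log2 ratios by -0.13 there). Psmb8 had 422 CPM (415 to 429) against 267 CPM (259 to 275), a log2 ratio of 0.66. Tapbp had 211 against 153 CPM (0.46) and B2m had 6548 against 4783 CPM (0.45). Psmb10, whose highest sums among the classes were those of this class, was the exception with 497 against 525 CPM (-0.078). A cluster led by 4922502D21Rik and Gpx6 held 22 of the 3064 cells labelled fl/fl and 760 of the 869 labelled +/fl. Without it the median was 0.077. Within that cluster the median was -0.063, and within the other 3 clusters, which held 1344, 1130 and 568 cells labelled fl/fl and 16, 49 and 44 labelled +/fl, it was 0.062, 0.23 and 0.061. Psmb8 had 530.1 against 482 CPM in the cluster with 1130 and 49 cells and 176 against 254 CPM in the Gpx6 cluster. Class-level and within-cluster values of Aire-stage mTECs thus differed, unlike those of tuft immune-like cells. Among cells of epithelial clusters with an Aire UMI after thinning, which need not be Aire-stage cells, 2047 labelled fl/fl and 690 labelled +/fl, the median was 0.37.

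Of the other epithelial classes, the Ccl20-led cluster and keratinocyte-like cells had 8 of 10 genes higher in the fl/fl-labelled library, against 48.4% and 47.4% of genes tested, with medians of 0.32 and 0.22. With TMM scaling Psmb8 turned higher in the Ccl20-led cluster. In the Ccl20-led cluster B2m had 6342 against 5018 CPM and Psmb8 678 against 702 CPM, and in keratinocyte-like cells H2-K1 had 5109 against 4042 CPM and Tap1 134 against 139 CPM. Cycling cells went the other way, with 2 of 10 higher against 46.9% and a median of -0.15. There Tap2 had 59.2 against 96.5 CPM (-0.70, 0.53 to 0.71-fold) and Psmb8 169 against 241 CPM (-0.51), while Psmb10 had 436 against 337 CPM (0.37). Muscle-like cells had 5 of 10 higher against 54.2%, and their membership changed between clusterings.

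Class shares entered the sums over all kept cells, so the levels were recomputed with the shares held fixed. At the class shares of the +/fl-labelled library the median log2 ratio of the 10 genes was 0.23, and at those of the fl/fl-labelled library 0.22, against 0.40 unadjusted. Psmb10 had 0.39 unadjusted and 0.0018 and -0.034 at the 2 sets of fixed shares. Psmb8 had 0.52, 0.34 and 0.37, and B2m 0.53, 0.29 and 0.35. H2-D1 had 0.20, 0.18 and 0.18. The Psmb10 ratio was thus near 0 once shares were fixed, while most of the Psmb8 ratio remained and that of H2-D1 hardly moved. Classes and not clusters were held fixed here, so the different Aire-stage clusters of the libraries, with Psmb8 at 176 against 254 CPM within the Gpx6 cluster, still enter the Psmb8 ratio.

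**Figure D4:**
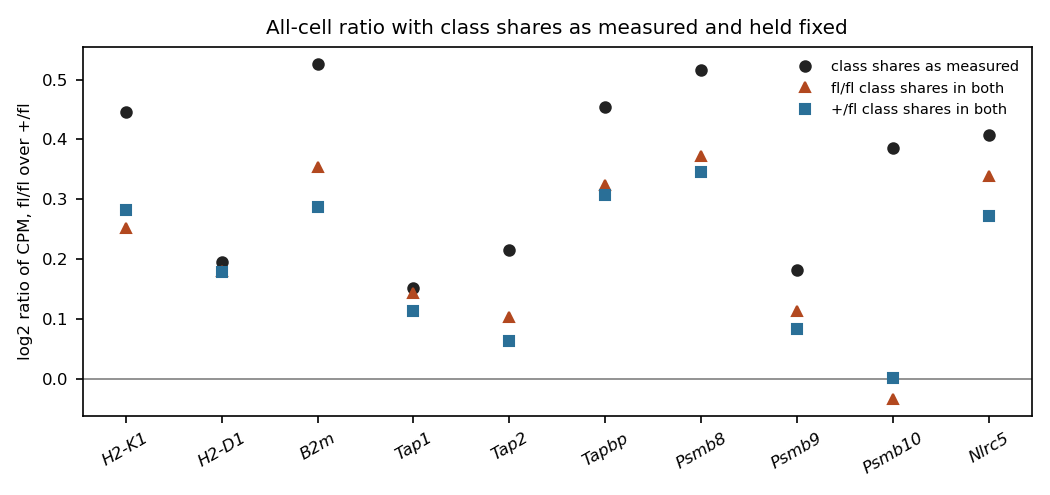
Log2 ratio of CPM, fl/fl over +/fl, for each of the 10 genes over all kept cells, unadjusted and with class shares held at those of the fl/fl-labelled library or of the +/fl-labelled library. Psmb10 is at 0.39 unadjusted and near 0 at fixed shares, B2m is at 0.53 unadjusted and at 0.35 or 0.29, and H2-D1 stays near 0.18.

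Each immunoproteasome subunit was set against the constitutive subunit whose place it takes, which compares 3' counts of a pair of genes and not molecules of protein. Over all kept cells Psmb8 over Psmb5 was 1.77 (1.73 to 1.800) in the fl/fl-labelled library and 1.27 (1.24 to 1.296) in the +/fl-labelled library. In Ccr7 dendritic-like cells it was 5.99 (5.32 to 6.76) and 7.201 (6.502 to 7.99), the highest of the classes with sums in both libraries, and in cycling cells 0.638 and 0.838. The order between libraries was not the same in these 2 classes as over all cells. Tuft immune-like cells had 1.395 (1.19 to 1.64) and 0.858 (0.799 to 0.9205), taste-like cells 0.953 (0.881 to 1.03) and 0.674 (0.623 to 0.729), and Aire-stage mTECs 1.91 and 1.04. In these 3 classes the ratio was higher in the fl/fl-labelled library. The libraries filled different Aire-stage clusters, and this ratio was not formed within them. Psmb9 over Psmb6 was 0.732 and 0.4997 in tuft immune-like cells and 2.93 and 3.53 in dendritic-like cells. Psmb10 over Psmb7 was 2.78 and 3.12 in Aire-stage mTECs and 0.594 and 0.3803 in the Ccl20-led cluster, where Psmb7 itself stood at 504 and 842 CPM.

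**Figure D5:**
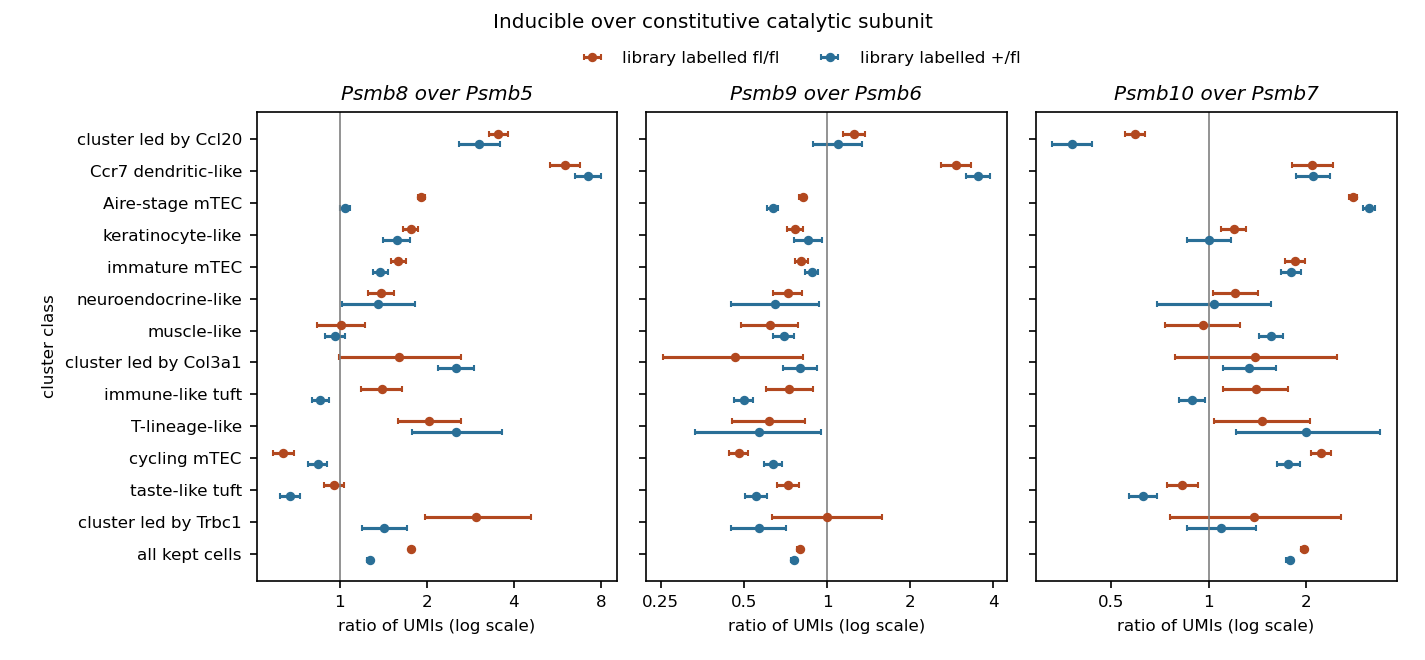
Ratio of summed UMIs of each immunoproteasome subunit to the constitutive subunit it replaces, by cell class and library on a log axis, with fl/fl before +/fl and exact 95% counting intervals. Psmb8 over Psmb5 and Psmb9 over Psmb6 are highest in Ccr7 dendritic-like cells, and Psmb10 over Psmb7 is 2.78 and 3.12 in Aire-stage mTECs.

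The rest of the proteasome had smaller median ratios between the libraries than the 10 genes, over all cells and in both tuft classes. In taste-like cells it shared their direction. Over all kept cells all 3 constitutive catalytic subunits were higher in the fl/fl-labelled library with a median log2 ratio of 0.11, and 9 of 11 other 20S core subunits with a median of 0.13. In tuft immune-like cells the constitutive subunits had a median of 0.031 and 4 of 11 other core subunits were higher, with a median of -0.11. In tuft taste-like cells 3 of 3 constitutive subunits were higher, with a median of 0.21, and 11 of 11 other core subunits, with a median of 0.23. With TMM scaling 2 of 3 constitutive and 7 of 11 other core subunits were higher over all cells, 1 of 3 and 4 of 11 in immune-like cells, and 10 of 11 other core subunits in taste-like cells. Of all genes tested, 42.4% were higher over all cells, 40.2% in immune-like and 52.2% in taste-like cells. With TMM scaling these shares were 32.1%, 35.7% and 42.3%. The count of core subunits was thus near the background in immune-like cells and above it in taste-like cells. The PA28 activator and assembly genes had medians of 0.12 in immune-like and 0.36 in taste-like cells. They were higher in 2 of 3 and 3 of 3, against 40.2% and 52.2% of genes tested. In immune-like cells their log2 ratios ran from -0.12 to 0.37, and the activator subunit gene Psme2 had 140.4 against 108 CPM.

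Other class I and class I-like genes were mostly higher as well over all cells and in both tuft classes, but not in every class. Over all kept cells 7 of 7 measured were higher in the fl/fl-labelled library, against 42.4% of genes tested, with a median log2 ratio of 0.37. With TMM scaling 6 of 7 were, against 32.1%. In immature mTECs 7 of 7 were higher, against 52.8%, with a median of 0.27. In Ccr7 dendritic-like and cycling cells 2 of 7 were, against 57.0% and 46.9%, with medians of -0.15 and -0.19. In tuft immune-like cells 6 of 6 were higher, against 40.2%, with a median of 0.59. H2-Q7 had 376 against 204 CPM, H2-Q6 242 against 125 CPM and H2-T23, a nonclassical class I gene, 374 against 276 CPM in those cells, and reads of the first pair of genes may be split between near-identical copies. In tuft taste-like cells 5 of 6 were higher, against 52.2% of genes tested, and H2-M2 was lower at 94.2 against 206 CPM (-1.12). The peptide loading and trimming genes were higher in 1 of 3 in immune-like and 3 of 3 in taste-like cells, against 40.2% and 52.2% of genes tested. Regulators of class I transcription had medians of 0.0063 over all cells, 0.0094 in immune-like and -0.048 in taste-like cells, and TMM scaling made the first pair of these negative. They were higher in 3 of 6, 4 of 7 and 1 of 6, against 42.4%, 40.2% and 52.2% of genes tested. Irf1, an interferon-induced activator of class I genes, had 293 against 319 CPM in immune-like cells and 102 against 134 CPM in taste-like cells. In immune-like cells the NF-kB gene Nfkb1 had 86.9 against 55.4 CPM. The class II genes listed for comparison had larger ratios than the class I genes, with medians of 0.84 over all cells, 0.92 in immune-like and 1.27 in taste-like cells.

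For counts per cell, 2000 UMIs were drawn from each cell (thinning), and 819 and 328 cells below that depth were dropped. None of the classes is known to lack these genes, so no background share could be set. Psmb8 had a UMI in 31.03% of thinned tuft immune-like cells labelled fl/fl and 23.04% of those labelled +/fl, and without thinning in 55.7% and 56.6%. In tuft taste-like cells the thinned shares were 31.05% and 19.8%, against 65.1% and 66.8% without thinning. The difference in Psmb8 was therefore seen at equal depth and not in the unthinned shares, where cells labelled +/fl were deeper. In Ccr7 dendritic-like cells the thinned shares were 78.3% and 83.00%, and in immature mTECs 40.99% and 39.5%. B2m averaged 6.25 and 5.25 of the 2000 UMIs in tuft immune-like cells, 13.3 and 9.83 in Aire-stage mTECs, and 10.5 and 11.6 in dendritic-like cells.

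Across the 29 sums of class and library, the 10 genes varied together to different degrees. The correlation of each gene's log2 level with the mean of the other members was 0.82 for Tapbp, 0.76 for B2m and 0.70 for Psmb9, but 0.37 for Psmb10 and 0.22 for Tap2. Of 7970 genes ranked by their correlation with the members' mean, those most like it were Ube2l6 (0.91), Nfkbia (0.88), Cxcl16 (0.87), H2-T23 (0.83), Csf2rb (0.83), Ier5 (0.82), Tapbpl (0.81) and Npc2 (0.81). Psme1 and Psme2, the PA28 activator genes, had 0.70 and 0.68, and the constitutive Psmb5 had -0.26. These correlations describe the 29 sums, which share their library, their depth and the clustering, and the classes differ in cell number.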

How the data were processed

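Both matrices hold UMI counts per gene and cell barcode, deposited by the authors. The submitters' processing notes name Cell Ranger and Seurat, without versions or roles. Per the file headers the matrices carry software version 3.1.0. Neither a genome build nor an annotation is given in the sources used here, and no cell annotation of the authors' own was used. Each library was assigned by the genotype field of its labels.

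Cells passed with 500 or more genes, 1000 or more UMIs and a mitochondrial share of 15% or less, 74.0% of barcodes in the fl/fl-labelled library and 69.8% in the +/fl-labelled library. Doublet scores came from the neighbours of each cell among 2 simulated doublets per cell, and the highest were removed at 0.8% per 1000 cells, 539 cells (6.57%) and 208 cells (4.08%). Each cell was scaled to 10000 and log-transformed. With 2000 variable genes, 30 principal components and 20 neighbours, Leiden clustering at resolution 1 (igraph 0.11.9, best of 20 starts) was run on both libraries without integration. The 66 genes of the pathway lists were left out of it. A cluster took the name of the marker list whose mean log2 fold was closest to that list's best, if at least 3 markers were in at least 10% of its cells at 2-fold or more. A cluster with more of its 10 leading genes on another list, or with markers of non-epithelial cells but Epcam as in epithelium, got no name. This rule was changed after the clusters were seen. Among tuft clusters, a subtype name needed at least 3 subtype markers in at least 10% of cells, at 2-fold over the lowest other tuft cluster. The list of Rgs21, Ovol3 and Myog gave no name.

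UMIs were summed per class and library in Python 3.11.15 with numpy 2.4.6, scipy 1.17.1, pandas 2.3.3 and anndata 0.12.19. Levels carry exact Poisson intervals, shares exact Clopper-Pearson intervals and folds exact conditional intervals, at 95%. Log2 ratios have 1 CPM added to both sums. The background is the share of genes with at least 50 CPM in either sum and 50 UMIs in all that were higher in the first sum. Classes with at least 50 cells in each library were compared between libraries, and sums of at least 20 cells were shown. Alternatives covered the cell filter, doublets, resolutions 0.5 and 2, the pathway genes kept in clustering, TMM factors (edgeR 4.0.16, R 4.3.3), 10 CPM added, no filter on low genes, per-cell CPM and thinning. Scripts were tested on simulated data.

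Members and gene lists were chosen with earlier results of these data known. Named genes are the members, genes of the fixed pathway and marker lists, genes that check the labels and the 10 genes most like the members over all sums.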

Additional observations from a re-analysis of the deposited data

How the results depend on the processing

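Intervals cover counting error only, 1 library per genotype gives no spread between mice, and genotype as labelled, sex and class composition differ together. No paired analysis was possible because each genotype has 1 library. Medians are log2 ratios over the 10 genes. Of the recomputed values of the main results 105 stayed within the counting interval of the reported one and 38 did not (227 and 48 of the others). Among the main results the median changed sign in Ccr7 dendritic-like cells and immature mTECs, as given here. Among the others it did so, for example, in muscle-like cells, from 0.027 to -0.029 with TMM factors. For the fl/fl-labelled library over the +/fl-labelled library, the median over all kept cells (0.40) was 0.30 with TMM factors, 0.32 with 10 CPM added and 0.44 without a cell filter. At the class shares of the +/fl-labelled library (0.23) it was 0.15 with TMM factors. In Aire-stage mTECs (0.31) it was 0.18 with TMM factors and 0.077 without the Gpx6 cluster, an alternative chosen after seeing the data like the Aire and Trpm5 gates. In Ccr7 dendritic-like cells (-0.097) it was 0.076 with doublets kept and -0.20 with TMM factors. In immature mTECs (0.069) it was 0.14 with doublets kept and -0.068 after thinning. Over immature mTECs of the fl/fl-labelled library, Aire-stage mTECs (0.39) had 0.43 with the stricter cell filter (1000 genes, 2000 UMIs, 10% mitochondrial), 0.34 with doublets kept, 0.20 with TMM factors and 0.44 after thinning. Ccr7 dendritic-like cells (0.42) had 0.61 with TMM factors and 0.51 after thinning, tuft immune-like cells (-0.32) -0.047 with the stricter filter, and tuft taste-like cells (-0.46) -0.37 with the stricter filter, -0.72 with TMM factors and -0.58 after thinning. In the +/fl-labelled library, Aire-stage mTECs (0.13) had 0.062 at resolution 0.5, 0.033 with TMM factors, 0.24 with per-cell CPM and 0.19 after thinning. Ccr7 dendritic-like cells (0.66) there had 0.63 with the stricter filter, 0.60 with doublets kept, 0.62 with pathway genes kept, 0.62 at resolution 0.5, 0.61 at resolution 2, 0.99 with TMM factors and 0.57 with per-cell CPM. Tuft immune-like cells (-0.87) had -0.69 with 10 CPM added, and tuft taste-like cells (-1.17) -1.39 with TMM factors and -0.89 with 10 CPM added. The median of the 3 ratios of an immunoproteasome subunit to its constitutive partner, over all cells, was 1.91 with per-cell CPM and 1.90 after thinning in the fl/fl-labelled library (1.77), and 1.52 and 1.51 in the +/fl-labelled library (1.27). Without a filter on low genes 60.9% of all genes were higher over all kept cells and 64.9% in Aire-stage mTECs. The causes were not tested.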
